A study of Mus musculus with 2 samples.

Results

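The cells described here are small intestinal tuft cells, picked out of 2 droplet single-cell libraries by their transcripts. A barcode was kept as a tuft cell when it had more than 500 genes, less than 25% of its unique molecular identifiers (UMIs, counted transcript molecules) from genes whose names start with mt-, UMIs from at least 3 of Dclk1, Trpm5, Sh2d6, Avil, Rgs13 and Pou2f3, no UMI of the T cell receptor genes Cd3e and Cd3g, and less than 10% of its UMIs from the goblet cell genes Muc2, Tff3, Zg16, Fcgbp, Clca1 and Spink4. This left 142 tuft cells of 8624 cells that passed the gene and mitochondrial filter and of 21629 deposited barcodes. There were 75 tuft cells in the Adipfl/fl library and 67 in the Adipfl/flpVilli-CreT library.

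The study asked how adiponectin made by the intestinal epithelium acts on crypt cells, and compared small intestinal epithelium of mice that carry loxP-flanked Adipoq alleles (Adipfl/fl) with mice that carry the same alleles and a Cre recombinase driven by the villin promoter, which is active in the intestinal epithelium (Adipfl/flpVilli-CreT). Mice were 8 weeks old, and crypt-enriched tissue was dissociated with collagenase and papain and depleted of dead cells. Each genotype is 1 library made from pooled male mice (n = 6, without a statement whether per genotype or in all), and the 3′ counts were not cleaned of doublets or free RNA. A difference between genotypes is therefore a difference between 2 libraries and has no replicate check. The intervals given below are 95% intervals that cover counting error only, and genotype, mouse, dissociation and library cannot be told apart.

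Tuft cells are rare chemosensory cells of the epithelium that carry a brush of long microvilli. They sense luminal metabolites and parasites through G protein-coupled receptors and a taste-type cascade that opens the cation channel Trpm5, and answer with interleukin-25, cysteinyl leukotrienes, prostaglandins and acetylcholine. The POU factor Pou2f3 is required for the lineage, and Dclk1, a microtubule-associated kinase, is its usual marker.

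All 6 rule genes were found in 50 of the 75 Adipfl/fl cells and in 46 of the 67 Adipfl/flpVilli-CreT cells, and 19 and 15 cells had 5 of them. Cells with exactly 3 of the 6 genes, which is the least the rule accepts, numbered 2 and 4, and 3 and 8 cells that passed the filter fell just outside with 2 of the 6. These genes chose the cells, so their detection and their levels are a description and no check of the label. Levels are given as CPM, the UMIs of a gene summed over the tuft cells and scaled to 1000000 UMIs. By this measure Dclk1 was at 1596 (1498 to 1698) in Adipfl/fl and 1382 (1306 to 1461) in Adipfl/flpVilli-CreT tuft cells, against 2.59 and 2.65 in all other cells. Sh2d6, an SH2 domain adaptor, was at 2142 and 1610 CPM. Rgs13, a regulator of G protein signalling, was at 1449 and 1251 CPM. Trpm5 stood at 979 and 687 CPM, and the actin-bundling villin relative Avil at 916 and 715 CPM. Pou2f3 was at 202 and 143 CPM and was found in 52 and 49 cells. Of tuft markers that the rule did not use, Alox5ap, which encodes the activating protein of 5-lipoxygenase, was at 944 and 705 CPM against 6.66 and 3.23 CPM in all other cells. After every cell was thinned to 2000 UMIs, Dclk1 was seen in 91.3% and 86.2% of tuft cells and in 0.0713% and 0.178% of enterocytes. The median depths before thinning were 4139 and 3943 UMIs in enterocytes and 5361 and 8643 UMIs in tuft cells.

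**Figure D1:**
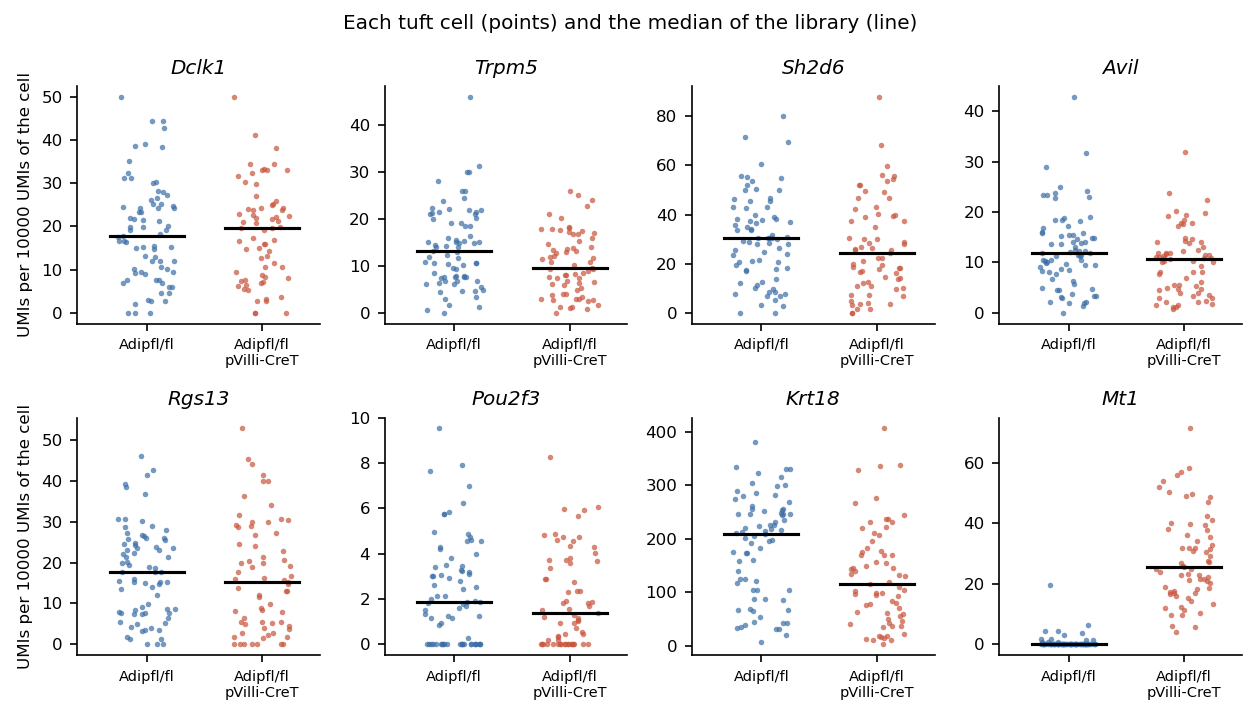
UMIs of 8 genes per 10000 UMIs of the cell (y axis) in each of the 75 Adipfl/fl and 67 Adipfl/flpVilli-CreT tuft cells (points), with the median of each library as a line. The medians of Dclk1 are 17.7 and 19.6, those of Krt18 are 210 and 116, and Mt1 is above 0 in 13 of 75 and in 67 of 67 cells.

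Single tuft cells spread widely. Dclk1 ran from 0 to 49.98 UMIs per 10000 UMIs of the cell in Adipfl/fl, with a median of 17.7, and from 0 to 50.1 with a median of 19.6 in Adipfl/flpVilli-CreT. Sh2d6 had medians of 30.3 and 24.3 and highest values of 80.2 and 88.0. The ranges of these genes overlapped almost completely between the libraries. Depth differed more: tuft cells held a median of 5361 UMIs and 2097 genes in Adipfl/fl, with a range of 818 to 52999 UMIs, and a median of 8643 UMIs and 3074 genes in Adipfl/flpVilli-CreT, with a range of 1249 to 56871 UMIs. In all they held 627928 and 897554 UMIs. Clustering of all cells, which read the rule's genes among others, put 73 of 75 and 58 of 67 tuft cells in 1 cluster, which held 76 and 62 cells in all. The libraries shared 31 barcode sequences, 1 of which belonged to a tuft cell.

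Most markers of immune cells were at or near 0 in tuft cells, whereas some enterocyte and enteroendocrine transcripts were not. Cd3d and Trdc were at 0 in both libraries, Cd3e and Cd3g were at 0 by the rule, and the 11 T cell markers summed to 30.3 and 30.1 CPM, against 62764 and 50889 CPM in T cell barcodes. The most abundant of them was the chemokine Ccl5. Of 9 mast cell markers 8 were at 0, and the remaining one, the receptor kinase Kit, was at 153 and 119 CPM. The 10 myeloid markers summed to 9.56 and 5.57 CPM, with C1qa at 0, and the 8 B and plasma cell markers to 35.0 and 23.4 CPM, with Cd79a at 0. Of the 12 enteroendocrine markers, 5 were at 0, among them Chgb, Tph1 and Pyy, and nearly all of the summed 392 and 299 CPM came from the hormone gene Sct. Secretin transcripts were found in 60 of 75 and in 56 of 67 tuft cells, and at 2000 UMIs in 59.4% and 50.8% of tuft cells, 11.8% and 14.2% of enterocytes and 1.60% and 4.54% of T cells. Its level in tuft cells stayed far below the 23487 and 15502 CPM of enteroendocrine cells. The 12 enterocyte markers, led by the fatty acid-binding protein gene Fabp1, summed to 14376 and 16760 CPM, against 91803 and 84813 CPM in enterocyte barcodes and 3975 and 12793 CPM in T cell barcodes. Fabp1 itself was at 5585 and 5327 CPM in tuft cells, above the 3536 and 3018 CPM of all other cells and near the 7204 and 5539 CPM of enterocyte barcodes, and was found in 71 of 75 and 63 of 67 tuft cells. The apolipoprotein gene Apoa1 was at 2852 and 3024 CPM in tuft cells against 31741 and 30044 CPM in enterocyte barcodes. The pan-epithelial adhesion gene Epcam was at 2932 and 2835 CPM.

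Outside the rule genes, 15 genes stood out most in tuft cells over all other cells. Of genes with at least 50 CPM in tuft cells, 162 of 3410 (4.75%) in Adipfl/fl and 138 of 3595 (3.84%) in Adipfl/flpVilli-CreT were at least 10-fold above the other cells. The rule used this contrast, so the counts are a description. Gng13, the G protein gamma subunit of taste signalling, led with 231 and 252 CPM against 0.120 and 0.375 in other cells. It was followed by Ly6g6f (554 and 368 CPM), the SH2 adaptor Sh2d7 (505 and 398 CPM) and the homeobox gene Hmx3 (126 and 119 CPM). The succinate receptor Sucnr1 (250 and 205 CPM), Strip2 (650 and 428 CPM) and the unnamed transcript Gm19817 (188 and 219 CPM) came next. The remainder included the tyrosine kinase Bmx, the sialic acid-binding receptor Siglecf, the homeobox gene Hmx2, the small muscle protein gene Smpx, the leukotriene enzyme Alox5, neurogranin (Nrgn) and Cd300lf, a lipid-binding immune receptor that murine norovirus uses for entry. Each of the 15 was at least 346-fold higher in tuft cells in both libraries.

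Across all 8624 cells, the gene whose per-cell values followed Trpm5 most closely was Sh2d6, with a Pearson r of 0.817 on log2(UMIs per 10000 UMIs + 1). Dclk1 (0.812), Ly6g6f (0.807) and Strip2 (0.803) followed, of 12207 genes compared. These values describe membership in one rare class, since the points share libraries and depth.

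Of the transcription factors listed, 10 in Adipfl/fl and 11 in Adipfl/flpVilli-CreT reached 50 CPM, and 8 and 7 of them were at least 10-fold higher in tuft cells. Besides Pou2f3, Hmx2 and Hmx3, the factors of tuft cells were Spib, an ETS factor of lymphoid cells (384 and 308 CPM against 3.07 and 1.08 in other cells), Gfi1b, a zinc finger repressor (54.1 and 46.8 CPM), 1810046K07Rik, which encodes a coactivator of Pou2f3 (161 and 154 CPM), Runx1, a factor of blood cells (256 and 188 CPM against 25.2 and 18.2), and Sox9, a factor of crypt cells (619 and 601 CPM against 11.2 and 13.5). Atoh1, the bHLH factor of goblet, Paneth and enteroendocrine precursors, had 0 UMIs in the Adipfl/fl tuft cells and 1 UMI in the Adipfl/flpVilli-CreT tuft cells. In goblet barcodes Atoh1 was at 361 and 309 CPM.

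POU factors bind the octamer ATGCAAAT. Because Pou2f3 and its coactivator were both expressed, the promoters of tuft genes were searched for these 8 letters on both strands, in windows from 250 bases before to 50 bases after each start site (RefSeq, GRCm38.p6). The octamer was in 532 of 27025 genes (1.97%). Of the tuft identity genes outside the rule, 25 matched the promoter table and 5 of them held it (20.0%). Of the 5 matched rule genes none did, and of the 13 matched genes among the 15 leading ones Sucnr1 did. The 11 matched enterocyte and 11 matched enteroendocrine genes did not hold it. Of the 12 matched taste-type genes Itpr3 did. The lines that follow show the octamer, or its reverse complement ATTTGCAT, in capitals within 30 bases on the strand of the gene. They are all the matches in the tuft identity and taste-type lists, shown because these are the genes of the results that follow.
Sucnr1, chr3:60081810-60081839, plus strand: ggctgcataatATGCAAATcagactgcact
Hpgds, chr6:65144886-65144915, minus strand: ctttactctttATGCAAATacgttggacta
1810046K07Rik, chr9:51328986-51329015, minus strand: ctgcattggggATGCAAATtggagagaaac
1810046K07Rik, chr9:51328955-51328984, minus strand: tacaccagaggATTTGCATttaatcaaatc
Nradd, chr9:110624577-110624606, minus strand: cattgcatggcATTTGCATgccagtggcct
Kctd12, chr14:102982779-102982808, minus strand: cagcgtttagcATGCAAATgcattccccgc
Itpr3, chr17:27057266-27057295, plus strand: tcccaggcgggATTTGCATgtgtgtggcgg
The coactivator gene held the octamer once in each orientation, with first bases at -86 and -55 from its start site. A match of letters is a description of the sequence and not a binding site.

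**Figure D2:**
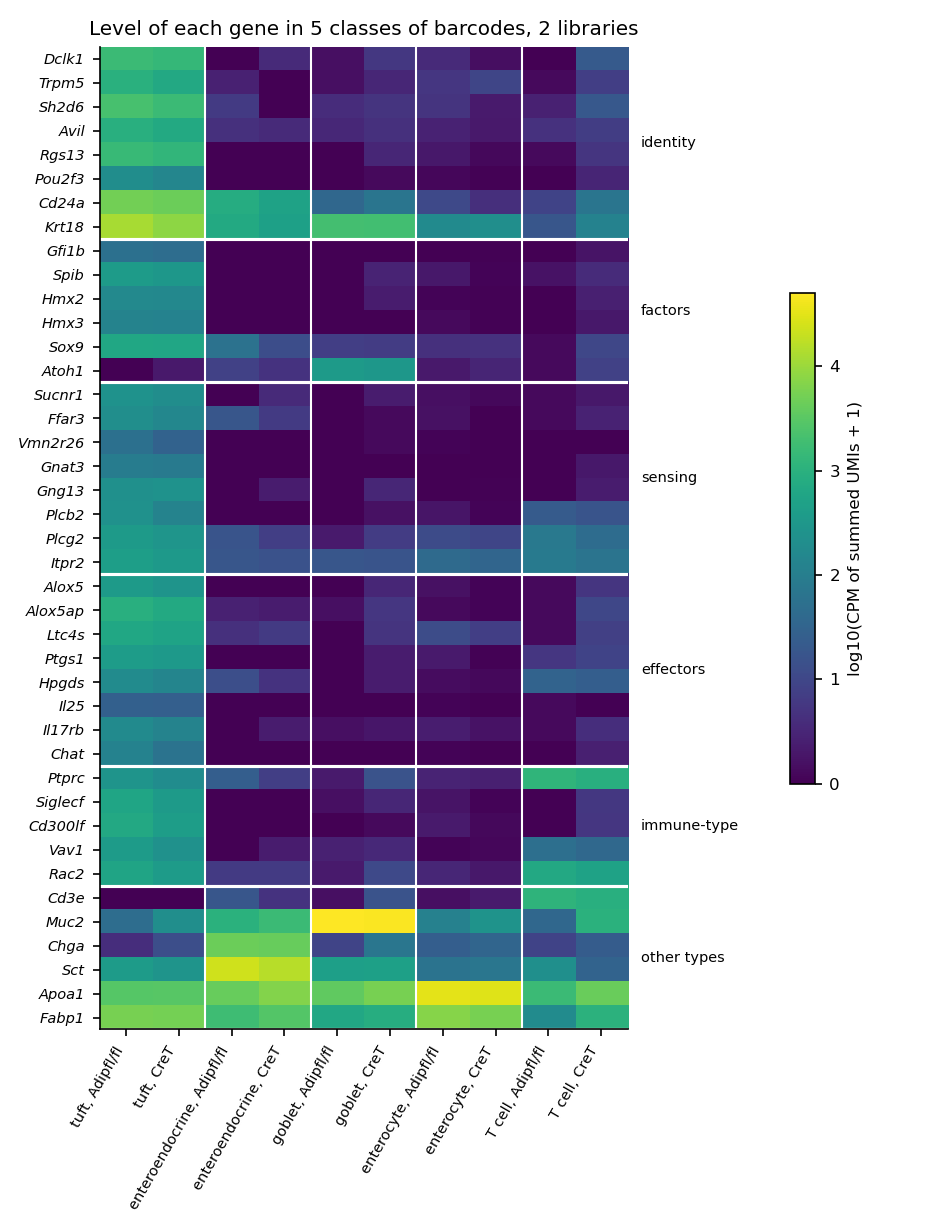
Level of 41 genes (rows, grouped by role) in tuft cells and in 4 other classes of barcodes of the 2 libraries (columns), as log10 of the CPM of summed UMIs + 1. Dclk1 is at 1596 and 1382 CPM in tuft cells, Atoh1 is brightest in goblet barcodes (361 and 309 CPM), Sct in enteroendocrine barcodes (23487 and 15502 CPM), and Ptprc is seen in tuft cells (266 and 189 CPM) and T cell barcodes (1196 and 908 CPM).

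Among sensing genes, receptors for metabolites were found and taste receptors were near 0. Sucnr1 was found in 48 of 75 and 49 of 67 tuft cells. Ffar3, the receptor for short-chain fatty acids, was at 209 and 152 CPM in 54 and 47 cells, and both receptors were found together in 38 and 38 cells. The vomeronasal-type receptor Vmn2r26 was at 52.6 and 29.0 CPM. The taste receptor subunits Tas1r1 and Tas1r2 had 0 UMIs in both libraries and Tas1r3 had 1 UMI in each. A count of 0 here allows up to 4.78 and 3.34 CPM. In the transduction cascade, the alpha subunit Gnat3 was at 94.0 and 83.6 CPM and the phospholipase Plcb2 at 240 and 125 CPM. The second phospholipase Plcg2 was at 368 and 282 CPM, and the calcium pump Atp2a3 at 1183 and 780 CPM. The beta subunit Gnb3 had 0 UMIs in Adipfl/fl and 1 UMI in Adipfl/flpVilli-CreT tuft cells, whereas the widely used Gnb1 was at 408 and 465 CPM. Among inositol trisphosphate receptors, Itpr2 was at 428 and 333 CPM in tuft cells and 33.8 and 25.4 CPM in the other cells. Itpr3 did not stand above the other cells (65.3 and 55.7 CPM against 64.0 and 60.8 CPM).

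All genes of the leukotriene branch up to leukotriene C4 were found. Pla2g4a, which frees arachidonate, was at 134 and 131 CPM. Alox5 was at 358 and 272 CPM, its activating protein Alox5ap at 944 and 705 CPM, and the leukotriene C4 synthase gene Ltc4s at 639 and 525 CPM. On the prostaglandin side, Ptgs1 was at 393 and 357 CPM and the prostaglandin D synthase gene Hpgds at 182 and 136 CPM. The other D synthase, Ptgds, and the E synthase Ptges had 0 UMIs in both libraries. Of the 8 genes of the eicosanoid list that reached 50 CPM, 6 were at least 10-fold above the other cells in each library. The exceptions were Lta4h and Hpgd. Chat, which makes acetylcholine, was at 119 and 61.3 CPM in 42 and 28 tuft cells, although the high-affinity choline transporter Slc5a7 had 0 UMIs and the vesicular transporter Slc18a3 had 1 and 2 UMIs.

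Interleukin genes were sparse. Il25 had 17 and 23 UMIs in 15 and 12 tuft cells, and stood at 27.1 and 25.6 CPM against 0.0798 and 0 CPM in all other cells. Its receptor chain Il17rb was at 178 and 124 CPM. Tslp, the thymic stromal lymphopoietin gene, had 20 UMIs in 15 Adipfl/fl tuft cells and 6 UMIs in 5 Adipfl/flpVilli-CreT tuft cells. The interleukin-13 receptor chain Il13ra1 was at 285 and 280 CPM, and Il13 itself had 0 UMIs in tuft cells.

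Tuft cells also expressed signalling genes better known from blood cells. Of the 26 listed genes that reached 50 CPM, 18 were at least 10-fold higher than in other cells in each library. Examples were the exchange factor Vav1 (376 and 238 CPM), the adaptor Fyb (1395 and 993 CPM), the phosphatase Ptpn6 (897 and 543 CPM) and the kinase Matk (1655 and 856 CPM). Ptprc, which encodes CD45, was found in 54 of 75 and 48 of 67 tuft cells that had no Cd3e or Cd3g UMI. At 2000 UMIs it was seen in 46.4% and 41.5% of tuft cells, 0.357% and 0.178% of enterocytes and 88.4% and 83.4% of T cells. Cd24a, a surface glycoprotein used to sort tuft cells, was at 5125 and 4405 CPM. The structural keratin gene Krt18 was at 12177 and 7865 CPM against 286 and 303 CPM in other cells.

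Some genes usually tied to stem cells were found in tuft cells. Lgr5 had UMIs in 19 of 75 (25.3%) and 21 of 67 (31.3%) tuft cells, at 55.7 and 52.4 CPM, and all of these cells also had Dclk1. In the other cells Lgr5 was at 0.678 and 1.88 CPM, and enteroendocrine barcodes had none. Only 1 and 5 of the Lgr5-positive tuft cells had Olfm4, and 0 and 3 had Mki67. The adiponectin receptor genes were both found: Adipor1 was at 94.0 and 116 CPM and Adipor2 at 151 and 164 CPM. Adipoq had 0 UMIs in tuft cells and in all the other cells of both libraries, so the deleted gene could not check the labels.

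Tuft cells were not uniform, and one axis was marked by Sox4, an HMG-box factor of early secretory cells. This split was chosen after the values were seen and is a description. Sox4 was found in 15 of 75 (20.0%) and 16 of 67 (23.9%) tuft cells. Of these, 13 and 10 lay in the tuft cluster and 2 and 6 outside it, and 3 and 7 had at least 2 of the cell cycle transcripts Mki67, Top2a, Cdk1 and Ccnb1. The Sox4-positive cells were deeper, with medians of 14397 and 17370 UMIs against 5183 and 6912 UMIs. Their median share of mt- UMIs was 3.94% and 2.72%, against 9.11% and 7.94% in cells without Sox4. Transcripts of 8 enterocyte genes made up a median of 0.130% and 0.135% of their UMIs, against 1.27% and 1.42%. Levels in CPM are compared here, over all tuft cells unless a set is named. Since levels can also differ with depth, ratios among cells of over 10000 UMIs, within the tuft cluster or both are given as well. The deep cells were 10 with and 7 without Sox4 in Adipfl/fl, and 13 and 16 in Adipfl/flpVilli-CreT. Neither set equalled depth. In the deep cells the medians with and without Sox4 were 19044 and 12656 UMIs in Adipfl/fl and 19488 and 16850 in Adipfl/flpVilli-CreT. In the tuft cluster they were 14276 and 5183 UMIs in Adipfl/fl and 13692 and 6575 in Adipfl/flpVilli-CreT.

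In both libraries, the neuronal regeneration-related gene Nrep was higher in Sox4-positive tuft cells (187 against 42.8 CPM, and 175 against 33.5 CPM). The Notch target Hes1 was also higher (50.4 against 5.71 CPM, and 150 against 18.6 CPM). Single cells carried much of both. One Adipfl/fl cell held 22 of the 52 Nrep UMIs of the Sox4-positive cells, and 1 Adipfl/flpVilli-CreT cell held 32 of 63. Without the richest cell on each side, Nrep was at 112 against 29.6 CPM and at 97.9 against 9.39 CPM, and Hes1 at 31.2 against 3.06 CPM and at 85.3 against 15.1 CPM. Among cells of over 10000 UMIs the ratio for Nrep was 2.60 (0.998 to 8.58) in Adipfl/fl, an interval that holds 1, and 14.6 (5.41 to 55.6) in Adipfl/flpVilli-CreT. Within the tuft cluster it was 5.46 (3.02 to 10.5) and 4.23 (2.18 to 8.31). For Hes1 the ratio among the deep cells was 3.03 (0.696 to 27.5) and 14.1 (5.21 to 53.7), and within the tuft cluster 8.03 (1.71 to 75.4) and 2.07 (0.532 to 7.17). Without the cells that had cell cycle transcripts Hes1 was at 15.4 against 22.2 CPM in Adipfl/flpVilli-CreT, and in cells of at most 10000 UMIs it had 0 UMIs in the Sox4-positive cells of both libraries, so its difference was not seen in every set of cells.

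The genes Sucnr1, Siglecf, Ptprc and Krt18 were lower in Sox4-positive cells. Over all tuft cells the intervals for the taste-type genes Gng13 and Plcb2 held 1 in both libraries. Within the tuft cluster the ratios were 1.41 (0.986 to 2.00) and 1.37 (0.997 to 1.87) for Gng13, and 0.887 (0.622 to 1.25) and 1.78 (1.15 to 2.73) for Plcb2. Without the cells that had cell cycle transcripts Gng13 had a ratio of 1.55 (1.09 to 2.21) in Adipfl/fl and 1.30 (0.929 to 1.81) in Adipfl/flpVilli-CreT. Sucnr1 was at 64.9 against 397 CPM in Adipfl/fl and at 55.6 against 305 CPM in Adipfl/flpVilli-CreT, Siglecf at 195 against 899 CPM and at 100.0 against 551 CPM, and Ptprc at 50.4 against 437 CPM and at 41.7 against 288 CPM. Krt18 was at 4367 against 18362 CPM and at 3392 against 10860 CPM. Among cells of over 10000 UMIs the ratios were 0.310 and 0.434 for Krt18, 0.137 and 0.269 for Sucnr1, 0.315 and 0.224 for Siglecf and 0.0845 and 0.152 for Ptprc. Within the tuft cluster they were 0.278 and 0.516 for Krt18, 0.196 and 0.406 for Sucnr1, 0.265 and 0.239 for Siglecf and 0.147 and 0.219 for Ptprc. Krt18 was also lower in the deeper of the cells without Sox4, at 11222 and 7371 CPM in those of over 10000 UMIs against 21578 and 17401 CPM in those of at most 10000 UMIs. Dclk1 was at 1398 against 1752 CPM and at 1136 against 1546 CPM, but within the tuft cluster the ratios were 0.981 (0.860 to 1.12) and 1.28 (1.12 to 1.46), so its direction turned in Adipfl/flpVilli-CreT. Over all tuft cells the interval of the ratio for Pou2f3 and for Kit held 1 in both libraries. Within the tuft cluster the Pou2f3 ratio was 0.980 (0.667 to 1.43) and 0.827 (0.480 to 1.36). That of Kit was 1.22 (0.792 to 1.86) in Adipfl/fl and 1.86 (1.17 to 2.91), an interval above 1, in Adipfl/flpVilli-CreT. Among the deep cells the Kit ratio was 1.20 (0.621 to 2.46) and 1.59 (0.935 to 2.75). Over all tuft cells the transcription factor Sox9 was at 537 against 685 CPM and at 569 against 621 CPM. Within the tuft cluster its ratios were 0.917 (0.738 to 1.14) and 1.47 (1.20 to 1.79), so its direction also turned in Adipfl/flpVilli-CreT. Without the cells that had cell cycle transcripts the Sox9 ratios were 0.930 (0.744 to 1.16) and 1.38 (1.11 to 1.70). Among the deep cells they were 0.819 and 1.03, with intervals that held 1.

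**Figure D3:**
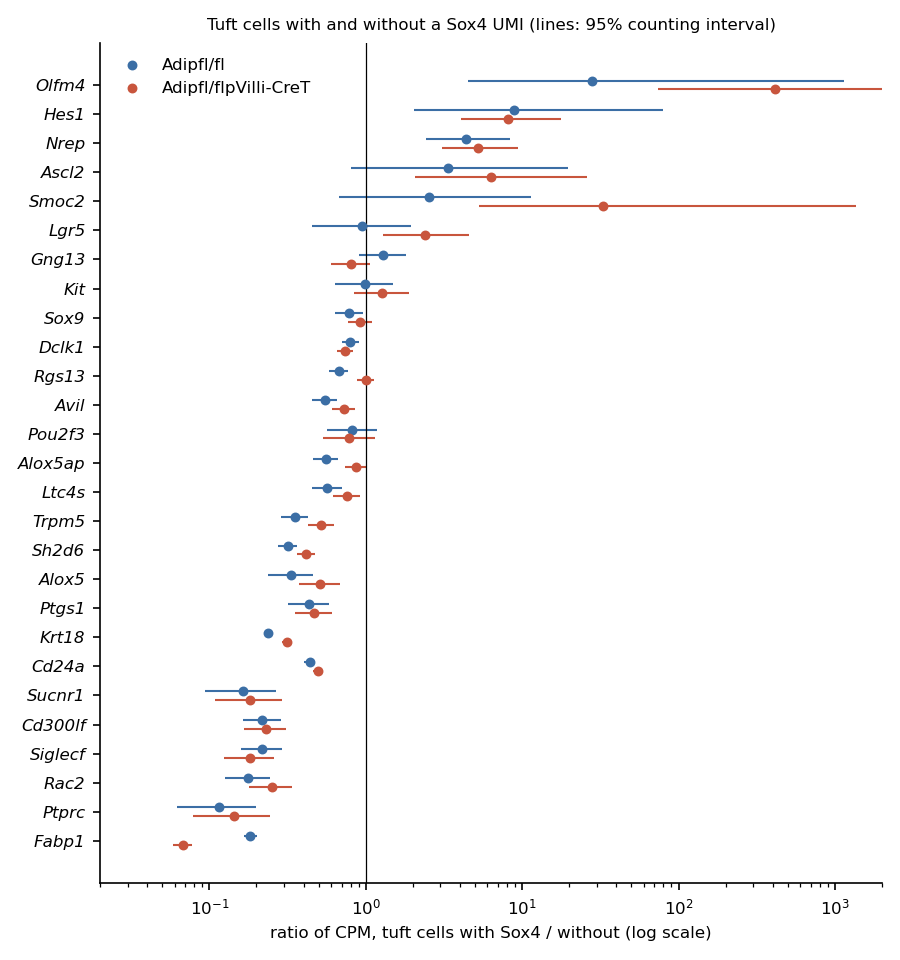
Ratio of CPM (x axis, log scale) between tuft cells with and without a Sox4 UMI for 27 genes (rows), with the 95% counting interval of each library. Hes1 and Nrep lie above 1 and Trpm5, Sh2d6, Krt18, Siglecf, Ptprc and Fabp1 below 1 in both libraries, while Gng13, Kit and Pou2f3 have intervals that hold 1.

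Lists proposed for a neuronal-type (tuft-1) and an immune-type (tuft-2) tuft cell were often found in the same cells. Of the 5 tuft-1 genes Nradd, Gng13, Nrep, Rgs2 and Pou2f3 and the 5 tuft-2 genes Ptprc, Tslp, Rac2, Ptgs1 and Irf7, 65 of 75 and 62 of 67 tuft cells had UMIs of both lists. At 2000 UMIs per cell, 42 of 69 and 40 of 65 cells still did, 9 and 12 cells had tuft-1 genes only, and 18 and 12 had tuft-2 genes only. The 6 and 2 shallower cells were left out of these counts. One cell of Adipfl/flpVilli-CreT had neither. A single UMI of any gene counted for its list, so finding both lists in a cell does not compare their levels. Spearman rho over cells between the summed levels of the lists was -0.09 and 0.18 at 2000 UMIs. Before thinning it was 0.02 and 0.40. Pou2f3 is a rule gene, so the choice of cells favoured the tuft-1 list. With the other 4 tuft-1 genes, 59 of 75 and 59 of 67 tuft cells had both lists, and at 2000 UMIs 37 of 69 and 35 of 65 did, while 9 and 11 cells had tuft-1 genes only and 23 and 17 had tuft-2 genes only. Within the tuft-1 list, Nrep was higher and Rgs2 lower in the Sox4-positive cells of both libraries (Rgs2 at 252 against 545 CPM and at 225 against 381 CPM). Among cells of over 10000 UMIs the ratio for Rgs2 was 0.460 (0.305 to 0.693) in Adipfl/fl and 0.961 (0.699 to 1.32) in Adipfl/flpVilli-CreT, and within the tuft cluster it was 0.563 and 0.924 (0.672 to 1.25). In cells of at most 10000 UMIs the Rgs2 ratio was 1.17 (0.671 to 1.91) in Adipfl/fl, on the other side of 1, and 0.127 (0.0152 to 0.469) in Adipfl/flpVilli-CreT. The interval for Nrep among the deep Adipfl/fl cells held 1.

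A few of the cells that met the rule carried cell cycle transcripts. At least 2 of Mki67, Top2a, Cdk1 and Ccnb1 were found in 3 of 75 (4%, Clopper-Pearson interval 0.833% to 11.2%) and 10 of 67 (14.9%, 7.40% to 25.7%) tuft cells. These cells had medians of 20480 and 34626 UMIs, with a range of 15567 to 43753 and of 4204 to 56871 UMIs, and they held 12.7% and 35.3% of all tuft UMIs. In them Dclk1 was at 589 and 616 CPM, against 1742 and 1799 CPM in the remaining tuft cells. Of the cells with cell cycle transcripts 1 and 4 lay in the tuft cluster, with Dclk1 at 1660 and 1344 CPM, and 2 and 6 lay outside it, with Dclk1 at 219 and 439 CPM. Olfm4, a crypt base gene, was at 276 and 853 CPM in the cells with cell cycle transcripts and 1.82 and 17.2 CPM in the rest. One Adipfl/flpVilli-CreT cell held 254 of the 280 Olfm4 UMIs of its library. Whether such cells are single cells or doublets was not tested.

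Tuft cells made up 2.44% (1.93% to 3.05%) of the 3069 cells that passed the filter in Adipfl/fl and 1.21% (0.936% to 1.53%) of 5555 in Adipfl/flpVilli-CreT. The ratio of the shares was 0.494 (0.350 to 0.695). By the same count, enteroendocrine barcodes had a ratio of 0.627 (0.436 to 0.906), goblet barcodes 0.999 (0.842 to 1.19), T cell barcodes 0.699 (0.617 to 0.792) and enterocyte barcodes 1.11 (1.04 to 1.18). The study retained more cells than this filter left of the same barcodes, so these denominators are not those of the study. When only the mitochondrial protein genes were counted towards the limit, 7637 and 9729 cells passed and the ratio was 0.712 (0.505 to 1.00). The ratio depended on the mitochondrial limit, which fell unequally on tuft cells and on the rest. The limit removed 4670 of 7739 barcodes with more than 500 genes (60.3%) in Adipfl/fl and 4263 of 9818 (43.4%) in Adipfl/flpVilli-CreT, but 1 tuft barcode in each library. Tuft cells had a median of 8.70% and 6.93% of UMIs from mt- genes, between the 4.84% and 5.22% of goblet barcodes and the 20.0% and 19.6% of enterocyte barcodes. Without the limit tuft cells were 76 of 7739 (0.982%) and 68 of 9818 (0.693%), a ratio of 0.705 (0.501 to 0.991). Of all deposited barcodes they were 0.766% and 0.566%, a ratio of 0.739 (0.523 to 1.04).

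**Figure D4:**
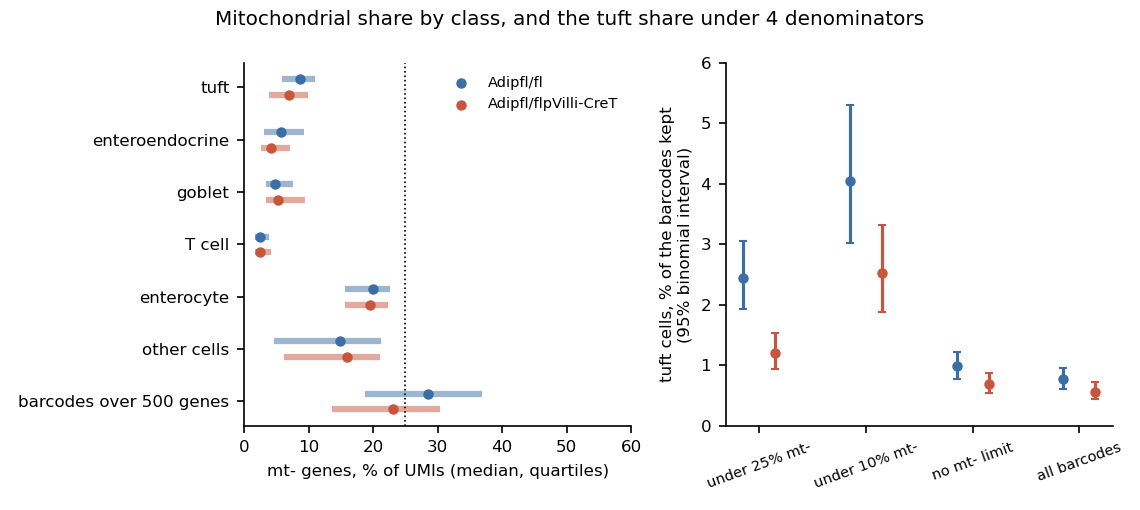
Left, the share of UMIs from mt- genes in 7 sets of barcodes of each library (points, medians, and bars, quartiles), with the 25% limit dotted. Right, tuft cells as a percent of the barcodes kept under 4 denominators, with 95% Clopper-Pearson intervals: the 2 libraries stand at 2.44% and 1.21% under the 25% limit and at 0.982% and 0.693% with no limit.

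Between the libraries, most of the tuft programme differed by less than 2-fold. Of 3856 genes with at least 50 CPM in one library and 20 UMIs over both, 79 (2.05%) were at least 2-fold higher and 26 (0.674%) at least 2-fold lower in Adipfl/flpVilli-CreT tuft cells. In all, 41.5% of the genes were lower, and the median log2 ratio was 0.08. None of the 6 rule genes and none of the 27 tuft identity genes past the minimum was 2-fold changed. All 6 rule genes and 26 of the 27 identity genes were below their Adipfl/fl level, with a median log2 ratio of -0.37 for the 27. In all other cells the median over the 27 was -0.45, a shift of similar size, and the identity genes there ranged from near 0 to 44.7 and 23.1 CPM for the phosphatase gene Ptpn6 and 40.9 and 36.9 CPM for Cd24a. Those other cells include the 3 and 4 cells with rule genes that the T cell clause left out. Among them, the richest held 97 and 107 rule gene UMIs, so the other cells were not free of tuft transcripts. The exception in tuft cells was Gng13 (ratio 1.09, 0.881 to 1.35). Siglecf had a ratio of 0.629 (0.541 to 0.732), Cd300lf 0.604 (0.525 to 0.696), Chat 0.513 (0.356 to 0.736) and Matk 0.517 (0.470 to 0.568). Over 14 alternatives the ratio ran from 0.595 to 0.811 for Siglecf, 0.572 to 0.827 for Cd300lf, 0.451 to 0.874 for Chat and 0.484 to 0.722 for Matk. When the 3 and 10 cells with cell cycle transcripts were left out, the median of the 27 genes was -0.11 and 18 of them were lower, the ratio for Dclk1 was 1.03 (0.866 with those cells) and that for Cd24a was 1.04 (0.860 with those cells). With tuft cells taken as a cluster the median was -0.10 with 18 lower. Without Sox4-positive cells it was -0.53 with 26 lower, and at a mitochondrial limit of 10% it was -0.44 with 24 lower.

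By role, 12 of 16 taste-type genes were lower, with a median log2 ratio of -0.31, and so were 23 of 26 immune-type genes, with a median of -0.49. In the eicosanoid list 6 of 8 were lower, with a median of -0.21. Without the cells that had cell cycle transcripts the medians were -0.09 for the taste-type list (11 of 16 lower), -0.20 for the immune-type list (20 of 26 lower) and 0.02 for the eicosanoid list (4 of 8 lower). In cells of at most 10000 UMIs they were -0.15, -0.22 and 0.02. Without Sox4-positive cells they were -0.45, -0.58 and -0.37. In all other cells of the libraries the medians were -0.37 for the taste-type, -0.43 for the immune-type and -0.16 for the eicosanoid list, shifts of similar size. Those cells include the ones left out by the T cell clause. T cell barcodes, which express many immune-type genes, were 14.8% and 10.3% of the cells that passed the filter. The part of either in these medians was not tested. No gene of these lists was 2-fold changed in tuft cells. Plcb2 (ratio 0.519, 0.403 to 0.667) and Rgs22 (0.522, 0.389 to 0.697), a further regulator of G protein signalling, came close. Pik3cg, the gamma isoform of PI3 kinase, went the other way (1.26, 1.01 to 1.58). The ratio for Tslp was 0.210 (0.0690 to 0.542), below the level minimum for a call, and that for Il25 was 0.947 (0.484 to 1.89). Adipor1 had a ratio of 1.23 (0.888 to 1.73) and Adipor2 of 1.08 (0.831 to 1.42). In the cytoskeleton list 9 of 17 genes were higher and 8 lower. Krt18 was lower (0.646, 0.625 to 0.667) and its partner Krt8 less so (0.842, 0.812 to 0.874), while Krt19, a keratin of crypt cells, was higher (1.80, 1.57 to 2.05). Without the cells that had cell cycle transcripts Krt18 had a ratio of 0.798, and Krt19 was at 425 and 393 CPM against 492 and 884 CPM with them.

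**Figure D5:**
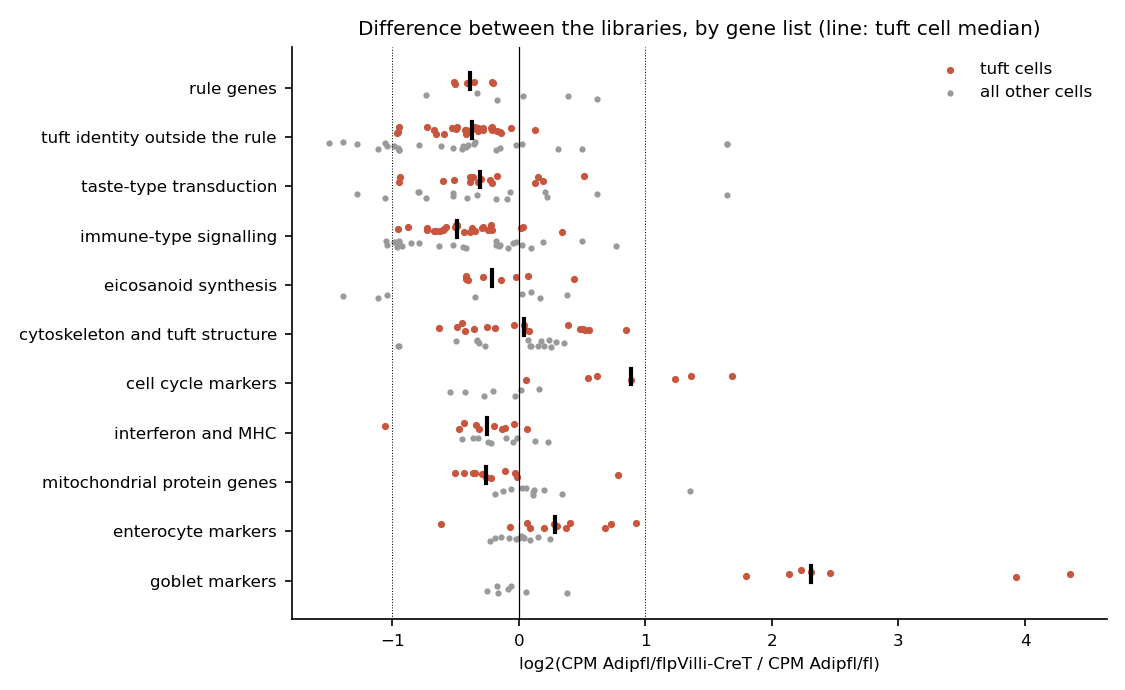
Log2 ratio of CPM, Adipfl/flpVilli-CreT over Adipfl/fl (x axis), of every gene past the minimum in 11 lists (rows), in tuft cells (red, with the median as a line) and in all other cells (grey). Dotted lines mark 2-fold. Of the 27 tuft identity genes 26 lie left of 0, all but Gng13, with a median of -0.37 and the goblet genes right of it with a median of 2.31.

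The gene ranked first among the rises was Mt1, which encodes the metal-binding protein metallothionein 1. It was at 185 CPM (153 to 222) in Adipfl/fl and 2614 CPM (2509 to 2722) in Adipfl/flpVilli-CreT tuft cells, a ratio of 14.1 (11.7 to 17.2). Mt1 was found in 13 of 75 and in 67 of 67 tuft cells, and one Adipfl/fl cell held 46 of the 116 UMIs of its library. The lowest Adipfl/flpVilli-CreT cell had 3.99 UMIs per 10000, and the highest Adipfl/fl cell 19.6, and 4 Adipfl/fl cells lay above that lowest value. Without the richest cell of each library the ratio was 22.2, and with every cell thinned to 2000 UMIs it was 67.2 (30.6 to 184). The Adipfl/fl UMIs came nearly all from deep cells: in cells of at most 10000 UMIs Mt1 had 1 UMI in 58 Adipfl/fl cells and 675 UMIs in 38 Adipfl/flpVilli-CreT cells, a ratio of 854 (153 to 33776). The size of the ratio therefore varied widely with the cells used, from 11.6 to 854 over 14 alternatives, while its direction was the same in each. Mt1 was higher in every class examined, with ratios of 7.78 in enterocyte, 11.8 in goblet, 6.70 in enteroendocrine and 17.8 in T cell barcodes. At 2000 UMIs Mt1 was seen in 5.80% of tuft cells, 16.9% of enterocytes and 5.94% of T cells of Adipfl/fl, and in 98.5%, 83.4% and 25.9% of those of Adipfl/flpVilli-CreT. The family member Mt2 was at 44.6 and 81.3 CPM in tuft cells (ratio 1.82, 1.17 to 2.93) and lower in the other cells (0.758, 0.719 to 0.799). The complex I gene mt-Nd3 was likewise higher in tuft cells (602 and 1037 CPM, ratio 1.72, 1.53 to 1.95) and in the other cells (ratio 2.56).

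Of the 10 leading rises 7 were goblet cell genes, and the others were Mt1, Olfm4 and S100a6. The ratio for Olfm4 ran from 0.652 to 9.86 over 14 alternatives, so its direction was not the same in each. The goblet genes were Agr2, Clca1, Fcgbp, Zg16, Tff3, Muc2 and Spink4. All 7 goblet markers past the minimum were at least 2-fold higher, with a median log2 ratio of 2.31. The 8 goblet markers summed to 592 CPM in Adipfl/fl and 2591 CPM in Adipfl/flpVilli-CreT tuft cells. One Adipfl/flpVilli-CreT cell, with 9.70% of its UMIs from the 6 goblet genes of the rule, lay just inside the 10% limit, and 1 with 14.8% lay outside. The next highest cell had 1.01%, and the highest in Adipfl/fl had 0.475%. That 1 cell held 63.7% of the UMIs of those genes. Without the 5 Adipfl/flpVilli-CreT cells at or above 0.5% the sums were 592 and 595 CPM. T cell barcodes, which should lack them, had goblet marker sums of 255 and 5866 CPM, and the part of free RNA and doublets in these values was not tested. S100a6, a calcium-binding protein gene of differentiated epithelium, was at 17.5 and 104 CPM (ratio 5.91, 3.16 to 12.3), and 1 cell held 56 of its 93 UMIs.

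The genes ranked lowest were led by Rsad2, the interferon-induced gene for viperin, at 98.7 and 15.6 CPM (ratio 0.158, 0.0817 to 0.285). One Adipfl/fl cell held 28 of the 62 Rsad2 UMIs of its library and another held 17. Rsad2 was found in 15 of 75 and 12 of 67 cells. Without the richest cell of each library the ratio was 0.249, a value that still includes the cell with 17 UMIs. Igtp, an interferon-induced GTPase gene, was at 86.0 and 30.1 CPM (0.350, 0.212 to 0.565). In the interferon and MHC list 9 of 10 genes past the minimum were lower, with 1, Ifit1, at least 2-fold lower (0.480, 0.325 to 0.703), and the median was -0.25. That median was -0.04 with 7 of 10 lower without the cells that had cell cycle transcripts, -0.10 with 6 lower by cluster and -0.12 with 6 lower in cells of at most 10000 UMIs, but -0.34 with 9 lower both with cells thinned to 2000 UMIs and without Sox4-positive cells. Matk and the C-type lectin gene Clec2d (288 and 138 CPM, ratio 0.479, 0.378 to 0.606) also ranked among the 10. The other 6 were mt-Rnr1 (0.579) and mt-Rnr2 (0.622), which are ribosomal RNAs of the mitochondrion, the small nuclear RNA 7SK (0.531), Lars2 (0.508), Rn18s-rs5 (0.453) and Mir6236 (0.328). Rn18s-rs5 and Mir6236 lie in ribosomal RNA repeats and Lars2 holds a stretch like one, so these counts are uncertain. Rn18s-rs5 was at 20190 and 9148 CPM in tuft cells and at 22262 and 14128 CPM in the other cells.

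In UMIs summed over tuft cells, cell cycle genes were higher in Adipfl/flpVilli-CreT, but the direction of their median was not the same in each set of cells. All 7 genes past the minimum were above their Adipfl/fl level and 3 were at least 2-fold higher. These were Top2a (22.3 and 52.4 CPM, ratio 2.35, 1.27 to 4.62), Birc5 (31.9 and 103 CPM, 3.22, 1.97 to 5.51) and Cdc20 (33.4 and 85.8 CPM, 2.57, 1.57 to 4.38). The median log2 ratio of the 7 was 0.89 over all cells and -0.08 without the 3 and 10 cells that had 2 or more of the cell cycle transcripts, a set chosen by some of the same genes. With every cell thinned to 2000 UMIs it was -0.40 with 4 of 7 lower, with tuft cells taken as a cluster -0.01 with 4 lower, and in cells of at most 10000 UMIs 0.04 with 3 lower. The thinned value rests on 69 and 65 cells, in which genes at these levels had few UMIs. The share of Sox4-positive cells was nearly equal in the libraries (20.0% with an interval of 11.6% to 30.8%, and 23.9% with 14.3% to 35.9%). These shares were not matched for depth. Of the cells over 10000 UMIs, 10 of 17 in Adipfl/fl and 13 of 29 in Adipfl/flpVilli-CreT had Sox4, and of the shallower cells 5 of 58 and 3 of 38. Enterocyte genes were higher for 10 of 12, with a median of 0.29, none of them 2-fold. Without the 1 Adipfl/flpVilli-CreT cell with at least 5% enterocyte transcripts that median was -0.02, but it was 0.50 with cells thinned to 2000 UMIs, 0.47 without the cells that had cell cycle transcripts, 0.56 in cells of at most 10000 UMIs and 0.88 without Sox4-positive cells. The immediate early genes Fos (220 and 433 CPM, ratio 1.97) and Fosb (41.4 and 95.8 CPM, ratio 2.31) were higher in tuft cells, whereas their ratios in the other cells were 1.02 and 0.982.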

How the data were processed

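Deposited values were UMI counts per gene and barcode. The authors made them from 10x Genomics 3′ (V3) reads with bcl2fastq 5.0.1 and Cell Ranger (7.1.0 in the file headers) on mm10, per the processing notes. They were analysed with Python 3.11.15, numpy 2.4.6, scipy 1.17.1 and pandas 2.3.3. Tuft cells, lists and the rule for naming genes were chosen with earlier results of these data known and the Sox4 and cell cycle splits after seeing values. The rule named list members, the 15 genes with the largest fold over other cells (by the smaller of both libraries' folds, at 100 CPM), 10 rises and 10 falls (by the bound of the interval nearest 1, in 10% of cells) and 5 profiles like Trpm5 (found in 100 cells). Genes outside it were chosen after seeing values. A gene that the rule also names is not reported here. Counts were summed over cells and divided by total UMIs (CPM). Intervals are exact Poisson, Clopper-Pearson or conditional binomial, and cover counting error only. A gene at 0 was set to 3 UMIs in a ratio. With 1 library per genotype no test was run. A call was a 2-fold difference at 50 CPM and 20 UMIs. On simulated counts for the comparison between genotypes (3692 genes), 100% of 3-fold rises, 95.7% of 3-fold falls and 0.200% of unchanged genes were called. The simulated counts were Poisson draws at the summed Adipfl/fl levels, without variation between cells or libraries. The 0.200% is therefore not a rate of false calls for the real data. Comparison classes were barcodes with 3 of Chga, Chgb, Neurod1, Pax6, Scgn and Insm1 (59 and 67), goblet genes at 10% (209 and 378), 2 Cd3e or Cd3g UMIs (454 and 574) or 8 enterocyte genes at 5% (1451 and 2913). Clusters came from Seurat 5.3.0 (R 4.3.3). The libraries held 42150623 and 63370798 UMIs.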

Additional observations from a re-analysis of the deposited data

Results flagged for a closer look

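The mitochondrial limit removed 1 barcode in Adipfl/fl and 1 in Adipfl/flpVilli-CreT that met the tuft rule otherwise, so a signal lay outside the cells analysed. The T cell clause left out 3 cells in Adipfl/fl and 4 in Adipfl/flpVilli-CreT that had at least 3 of the 6 rule genes. Of the 3, each had 1 UMI of Cd3e or Cd3g. Of the 4, one had 31 such UMIs, one had 7 together with 77 UMIs of Gzma and Ccl5, and one of 116134 UMIs had 2. Their identity was not tested.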

How the results depend on the processing

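No paired analysis was possible because the labels give no replicate numbers and each genotype is 1 library. The ratio of tuft shares (0.494) was below 1 under all 22 alternatives, with an interval wholly below 1 in 20. It was 0.705 without a mitochondrial limit, 0.712 with the limit on mitochondrial protein genes alone, and, in alternatives chosen after seeing the data, 0.739 over all deposited barcodes and 0.704 over barcodes under 10% enterocyte transcripts with no mitochondrial limit. The counts of genes at least 2-fold higher and lower (79 and 26) were 136 and 88 with cells thinned to 2000 UMIs, 47 and 16 with tuft cells taken as a cluster, 300 and 175 with no CPM minimum and 379 and 210 at 1.5-fold. The higher count was 172 for means over cells, and the lower count 42 with the median set to 0. In alternatives chosen after seeing the data they were 354 and 107 without Sox4-positive cells and 232 and 90 in cells of at most 10000 UMIs. Of 714 recomputed ratios of 51 genes 31, in 12 genes, lay on the other side of 1 from the value first given, and 11 of them belonged to genes whose interval had excluded 1. Dclk1 was at 1.00 by cluster and 1.03 without cycling cells. Cd24a was at 1.02, 1.04 and, in cells of at most 10000 UMIs, 1.00. Hpgds was at 1.34 thinned and 1.24 in cells of at most 10000 UMIs. Olfm4 was at 0.751 by cluster and 0.652 without Sox4-positive cells. Without cells of at least 0.5% goblet transcripts Fcgbp was at 0.763 and Tff3 at 0.732. The cause was not tested. Genes under 50 CPM rested on few UMIs.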

Other observations

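The genes Oas2, Cmpk2 and Ifit1bl1 were picked out because their levels were lower in Adipfl/flpVilli-CreT tuft cells, so their direction supports nothing. Oas2 was at 134 and 63.5 CPM (ratio 0.475, 0.333 to 0.672), Cmpk2 at 73.3 and 30.1 CPM (0.411, 0.245 to 0.675) and Ifit1bl1 at 55.7 and 20.1 CPM (0.360, 0.192 to 0.653). In Adipfl/fl 1 cell held 18 of the 46 UMIs of Cmpk2 and 1 cell held 14 of the 35 of Ifit1bl1, and the shares of tuft cells with a UMI were close in both libraries (26.7% and 28.4% for Cmpk2, and 12 of 75 and 12 of 67 cells for Ifit1bl1). In the other cells the ratios were 0.627, 0.904 and 1.06.

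Of 11 immediate early and dissociation stress genes past the minimum 8 were higher and 1 of them, Fosb, was at least 2-fold higher, with a median log2 ratio of 0.20. The 9 Paneth cell markers summed to 30.3 and 108 CPM in tuft cells, and all 33 Lyz1 UMIs came from 2 Adipfl/flpVilli-CreT cells. Adh1, an alcohol dehydrogenase gene, was at 1565 and 1298 CPM in tuft cells against 70.5 and 67.1 CPM in the others.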
